A study of Rattus norvegicus with 8 samples.

Results

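The genes described here encode AP-1 subunits and small Maf factors, 10 genes in all. They are the Fos family members Fos, Fosb, Fosl1 and Fosl2, the Jun family members Jun, Junb and Jund, and the small Maf genes Maff, Mafg and Mafk. Members were taken as the non-control array probes whose annotated accession is a rat RefSeq transcript of one of these genes, without use of any signal. All 10 had a probe, and 14 of the 45598 distinct probes on the array belonged to them. RNA came from NR8383 cells, a macrophage line started from lung lavage of a normal rat. The cells had been exposed for 4 h to ZnO at 16 µg/mL (4 arrays) or at 4 µg/mL (4 arrays), and the series' design calls the 4 arrays of a dose biological replicates. The dose of each array was taken from its sample title, since the treatment label names both doses for every array. No other agent is named for either dose, and untreated cells were not analysed here, so every difference is between 2 exposed groups. The question was which of these genes differed with dose.

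AP-1 is a dimer of basic leucine zipper proteins. Jun proteins pair with themselves or with Fos proteins, Fos proteins need a Jun partner, and the dimers bind short palindromes that regulate growth, stress and inflammatory genes. The small Maf proteins also carry a basic leucine zipper but no activation domain. They pair with themselves as repressors or with NRF2 and BACH1 at antioxidant response elements. In macrophages Fos, Fosb, Junb and Maff belong to the early response genes that are transcribed within minutes of many stimuli, while Jund and Mafg are usually present at rest.

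Upstream sequence is shown for 4 members as examples of windows with and without the elements searched. All 9 tested members were higher at 16 µg/mL, so a rise does not set these 4 apart. Windows of 250 bases before and 50 after the transcription start came from RefSeq (GRCr8) and were in the table for 8 of the 10 members, with Fos and Jun not in the table. Both strands were searched for the AP-1 site TGANTCA, the cyclic AMP response element TGACGTCA, the Jun-type octamer TGACATCA, the antioxidant response core TGACNNNGC and, by name, the serum response CArG box. The lines give the 250 bases before each start, 5′ to 3′ along the gene's strand, with a match in capitals.
Maff, chr7:112792537-112792786 (+): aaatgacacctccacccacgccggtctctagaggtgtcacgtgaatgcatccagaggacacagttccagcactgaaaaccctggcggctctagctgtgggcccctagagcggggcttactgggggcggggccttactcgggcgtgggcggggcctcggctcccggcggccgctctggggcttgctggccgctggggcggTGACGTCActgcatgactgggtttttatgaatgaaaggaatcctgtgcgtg
Jund, chr16:18769772-18770021 (-): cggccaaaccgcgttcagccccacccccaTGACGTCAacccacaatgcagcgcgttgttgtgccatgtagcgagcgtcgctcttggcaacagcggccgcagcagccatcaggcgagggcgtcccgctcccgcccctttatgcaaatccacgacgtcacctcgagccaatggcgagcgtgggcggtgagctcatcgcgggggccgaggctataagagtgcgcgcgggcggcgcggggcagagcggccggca
Mafk, chr12:19959193-19959442 (-): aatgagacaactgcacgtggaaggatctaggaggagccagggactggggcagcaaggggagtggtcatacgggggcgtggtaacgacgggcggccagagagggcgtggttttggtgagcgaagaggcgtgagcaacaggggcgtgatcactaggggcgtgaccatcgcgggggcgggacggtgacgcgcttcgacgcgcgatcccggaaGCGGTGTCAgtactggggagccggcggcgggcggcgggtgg
Junb, chr19:40080876-40081125 (+): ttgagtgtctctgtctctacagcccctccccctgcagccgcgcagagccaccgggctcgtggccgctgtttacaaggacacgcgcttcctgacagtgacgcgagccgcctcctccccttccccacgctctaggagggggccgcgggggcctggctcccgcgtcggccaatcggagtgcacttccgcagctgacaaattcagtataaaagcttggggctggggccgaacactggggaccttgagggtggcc
The cyclic AMP response element stood in Maff at bases -51 to -44 from the start and in Jund at -221 to -214, and 1.91% of all 27457 promoters in the table and 3.38% of the 6696 of tested genes held it. Mafk held an antioxidant response core at -41 to -33, on the strand opposite to the one printed, so its capitals are the reverse complement of the motif. Fosl1, not shown, held another at -88 to -80, and 12.2% of all promoters and 15.1% of those of tested genes held such a core. The AP-1 site was in 7.33% of all promoters and 5.05% of those of tested genes, the Jun-type octamer in 4.26% and 1.57%, and the CArG box in 1.64% and 1.21%. None of the 8 member windows held any of these. Junb, printed as an example without a capital, as Fosb, Fosl2 and Mafg also are, had a TATAAA at -49 to -44 and a CCAAT at -85 to -81. Jund also held a CCAAT, at -86 to -82, and Fosb a TATAAA on the opposite strand at -180 to -175. These letters were held by 14.3% (TATAAA) and 37.7% (CCAAT) of all promoters. Among tested genes 7.05% held the TATAAA and 39.4% the CCAAT. No matches overlapped in the member windows. These matches describe letters in the window and were not set against binding.

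Signals were 1-colour array intensities. They are given as log2 of the processed signal minus the array's own 75th percentile, so 0 is the 75th percentile and 1 unit is a doubling. Different probes hybridise differently, so these levels order arrays for 1 probe and do not rank genes. Testing required a probe flagged as well above background on 3 or more of a dose's 4 arrays. It covered 13464 genes, 9 of them members. The share of probes well above background was 31.4% to 35.7% on arrays at 16 µg/mL and 31.8% to 39.3% at 4 µg/mL, and the 75th percentile of the signal was 151 to 381 at 16 µg/mL and 313 to 516 at 4 µg/mL. The doses lay on separate slides, were scanned separately and are labelled with 200 passages at 16 µg/mL and 20 passages at 4 µg/mL, so dose, slide, scan and passage cannot be told apart. Of 14 macrophage markers tested, 1 rose (Spi1, by 0.81), 3 fell (Cd68, Ctsd and Itgam) and 10 did not pass. Among all genes tested 19.8% were called higher and 21.9% lower. Itgam also did not pass with arrays scaled to their medians (adjusted p = 0.167), without the filter on dim probes (adjusted p = 0.0600) or with its probes averaged (adjusted p = 0.143), all by limma. The macrophage markers' summed linear signal was 457 to 629 times the 75th percentile at 16 µg/mL and 558 to 640 times at 4 µg/mL. Marco and Cd163, which mark alveolar and tissue macrophages, were not among the tested genes, and none of 10 epithelial markers was. Of 4 fibroblast and endothelial markers tested Pecam1 and Vwf fell (Vwf did not pass with its probes averaged), with summed signals of 5.28 to 7.48 at 16 µg/mL and 10.6 to 13.5 at 4 µg/mL. Of 2 lymphocyte or granulocyte markers Cd3d fell, by at least 1.45-fold, with summed signals of 0.406 to 0.66 at 16 µg/mL and 0.55 to 0.674 at 4 µg/mL. The part of these markers in the results below was not tested.

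All 9 tested members rose at 16 µg/mL and none fell (limma, Benjamini-Hochberg adjusted p under 0.05 over all 13464 genes), where 19.8% of all genes tested were called higher and 21.9% lower. In each of the 9, every array at 16 µg/mL was above every array at 4 µg/mL, which held for 18.5% of all genes. Of the 9, 7 cleared background on 3 or more arrays of both doses, and all 7 of these rose. Fos and Mafk entered the test through the arrays at 16 µg/mL alone, an entry that favours a rise. The median difference, ZnO 16 minus ZnO 4, was 2.95 among the 9 with Fos and Mafk at the lower bounds given below, and 0.0052 among all genes on the log2 scale. Probe by probe, 13 of the 14 member probes were tested and 13 rose, where 20% of all probes tested alone were called higher. The tenth member, Fosl1, cleared background on no array. The plot of signals by array shows all 10.

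**Figure D1:**
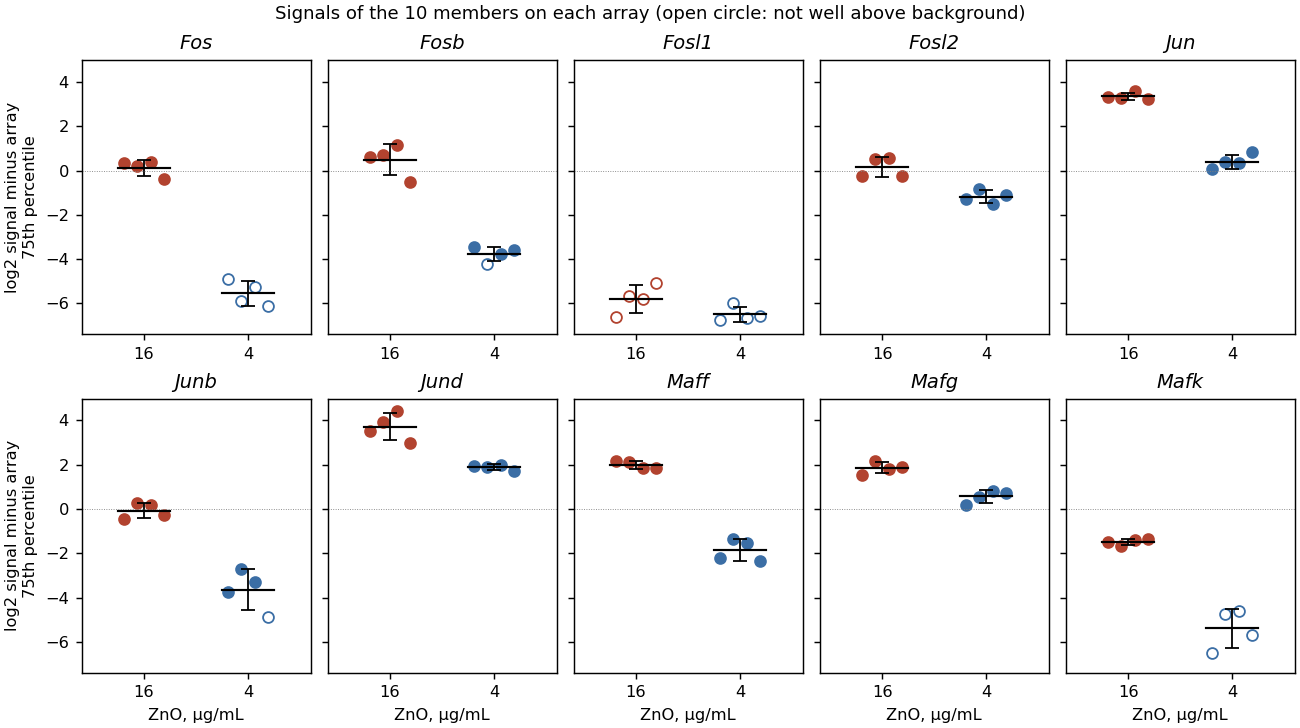
Log2 signal minus the array's 75th percentile for the 10 members, 1 point per array, with ZnO 16 µg/mL left of ZnO 4 µg/mL, a line at the mean of 4 arrays, bars of 1 SD and open circles where it did not clear background. In the 9 tested members the 4 points at 16 µg/mL lie above all 4 points at 4 µg/mL, Fos and Mafk have only open circles at 4 µg/mL, and Fosl1 has open circles at both doses.

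Fos encodes the prototype Fos subunit, an unstable activator whose transcript is nearly absent in resting cells. Its signal was 0.32, 0.22, 0.39 and -0.40 on the 4 arrays at 16 µg/mL, against -4.91, -5.90, -5.24 and -6.11 at 4 µg/mL. The lowest array at 16 µg/mL was still far above the highest at 4 µg/mL. The probe cleared background on all 4 arrays at the higher dose but on 0 of 4 at the lower. It was spotted 2 times per array, and 1 of the 2 spots did pass background on the arrays of replicates 1 and 3 at 4 µg/mL, with linear signals of 33.1 and 32.8, while the lowest spot at 16 µg/mL read 164. Fos was at least 17.5-fold higher. The limma adjusted p of 6.78e-07 was for the signals as measured, not for this bound. For such a bound, each array at 4 µg/mL took the highest of the probe's own signal, any spot of it that passed and the dimmest signal well above background on the array.

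Fosb encodes a Fos subunit whose truncated splice form is long-lived. Signals were 0.61, 0.69, 1.14 and -0.51 at 16 µg/mL, against -3.47, -4.24, -3.75 and -3.60 at 4 µg/mL. Replicate 4 was the lowest array at 16 µg/mL, as it was for Fos, and the doses did not overlap. Fosb rose by 4.25 (SE 0.32, limma adjusted p = 5.83e-06), a 19.0-fold difference, and on 3 of the 4 arrays at 4 µg/mL its probe cleared background.

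Fosl2 encodes Fra-2, a Fos-related subunit that lacks the strong activation domain of Fos. The probe that stands for the gene read -0.24, 0.52, 0.59 and -0.25 at 16 µg/mL, against -1.27, -0.83, -1.53 and -1.104 at 4 µg/mL. All arrays were well above background, the doses did not overlap, and the gene rose 2.53-fold (1.34 on the log2 scale, SE 0.24, limma adjusted p = 0.00158). Its other 2 probes, annotated to the same transcript, gave larger differences of 2.39 and 2.44. These exceeded the first probe's by 1.06 and 1.1003 within arrays (exact two-sided permutation tests over 70 assignments, adjusted p = 0.0381 for each, over 4 probe pairs chosen after the data were seen). The 3 probes therefore do not give 1 fold for Fosl2, and 2.53 is the lowest of them.

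Fosl1 encodes Fra-1, the related subunit that Fos and Jun themselves induce in many cells. Its single probe read -6.60, -5.66, -5.81 and -5.08 at 16 µg/mL, against -6.75, -6.00, -6.64 and -6.58 at 4 µg/mL. The doses overlapped and no array cleared background, so no fold and no test is given. A transcript at a level below this array's detection cannot be told from none.

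Jun encodes the subunit that forms the strongest dimers with Fos and whose protein is activated by JNK phosphorylation. The representative probe read 3.31, 3.26, 3.58 and 3.24 at 16 µg/mL, against 0.050, 0.38, 0.34 and 0.83 at 4 µg/mL. The arrays of a dose lay close together, all were well above background, and Jun rose 7.72-fold (2.95, SE 0.17, limma adjusted p = 9.29e-07). A second probe, spotted 10 times on each array, gave 2.66, from 2.57, 2.41, 2.48 and 2.59 at 16 µg/mL, against -0.24, -0.31, 0.017 and -0.051 at 4 µg/mL. The 2 Jun probes differed in change by -0.29, second minus first (exact permutation p = 0.2, adjusted p = 0.2).

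Junb encodes a Jun subunit that activates weakly and can oppose Jun at shared sites. Signals were -0.46, 0.26, 0.16 and -0.25 at 16 µg/mL, against -3.75, -2.69, -3.27 and -4.86 at 4 µg/mL. Replicate 4 at 4 µg/mL was the lowest and the only array not well above background. Junb rose 11.9-fold (3.57, SE 0.40, limma adjusted p = 7.64e-05). Its spot on that array lay in an area of low signal, and the difference was 3.17 with the area set to missing.

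Jund encodes the Jun subunit that most resting cells carry, often described as restraining growth. The representative probe read 3.54, 3.95, 4.43 and 2.98 at 16 µg/mL, against 1.94, 1.90, 2.01 and 1.73 at 4 µg/mL. The arrays at 16 µg/mL spread more widely than those at 4 µg/mL, but did not overlap them, and Jund rose 3.55-fold (1.83, SE 0.26, limma adjusted p = 0.000358). A second probe, annotated to another RefSeq accession of Jund, read -1.08, -0.17, -0.054 and -0.99 at 16 µg/mL, against -3.51, -2.89, -3.06 and -3.65 at 4 µg/mL. Its difference was 2.70, larger than the first probe's by 0.88 within arrays (exact permutation test, adjusted p = 0.0381).

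Maff encodes the small Maf factor known as stress- and cytokine-inducible. Its signals were 2.19, 2.10, 1.85 and 1.84 at 16 µg/mL, against -2.19, -1.33, -1.55 and -2.33 at 4 µg/mL. All 8 arrays were well above background and the doses did not overlap. Maff rose 14.4-fold (3.85, SE 0.22, limma adjusted p = 1.05e-06), and its window is 1 of the 2 printed above with a cyclic AMP response element.

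Mafk encodes a small Maf that partners NRF2 and BACH1 at globin and heme oxygenase enhancers. Signals were -1.47, -1.67, -1.41 and -1.37 at 16 µg/mL, against -6.48, -4.75, -4.61 and -5.68 at 4 µg/mL. All 4 arrays at 16 µg/mL cleared background and none of the 4 at 4 µg/mL did, so Mafk was at least 7.02-fold higher. The limma adjusted p of 3.51e-05 was for the signals as measured, not for this bound. On replicate 4 at 4 µg/mL its spot, like Junb's, lay in an area of low signal.

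Mafg encodes a widely expressed small Maf and common partner of NRF2. It read 1.56, 2.16, 1.82 and 1.90 at 16 µg/mL, against 0.18, 0.56, 0.83 and 0.74 at 4 µg/mL. The doses did not overlap, and the rise of 2.43-fold (1.28, SE 0.17, limma adjusted p = 0.000298) was the smallest among the 9.

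The arrays also carry probes for spike-in control RNAs, which Agilent's 1-colour labelling adds in fixed amounts. On the same scale 7 of them were well above background on all arrays and differed by -0.68 to 1.62, and 5 of the 7 were higher at 16 µg/mL by at least 1.15. Of the 7 members that cleared background at both doses, the differences of 5 were above that of every spike-in, and for 4 of them (Fosb, Jun, Junb and Maff) the whole 95% interval was. The lower bounds of Fos (4.13) and Mafk (2.81) were also above every spike-in. The interval of Jund began at 1.26, and Fosl2 and Mafg lay inside the spike-in range. These values are for the probe that stands for each gene. The other 2 Fosl2 probes differed by 2.39 and 2.44, with intervals from 1.90 and 1.96. The second Jund probe differed by 2.70, with an interval from 2.08. These 3 intervals were wholly above every spike-in. Scaling to the spike-ins, used next, took the mean log2 signal of all spike-in spots, also of spike-ins not among the 7. With arrays left unscaled or scaled to the spike-ins, Fosl2 (0.58 and 0.64) and Mafg (0.53 and 0.59) stayed positive and no longer passed the test (limma adjusted p = 0.212 and 0.111 for Fosl2, and 0.263 and 0.183 for Mafg), and 7 members were called. Another processing started from the median signals and used normexp background correction, an offset of 50 added to every signal, and quantile normalization. The Jun difference under it was 2.99 and the Mafg difference 1.30. There the Fosb difference was 2.63, the Junb difference 2.17 and the Fosl2 difference 0.85, and the fitted Fos difference was 2.49 and the Mafk difference 1.37, both below the bounds above. All 5 were still called. Unscaled and spike-in scaled arrays moved the median of all genes by -0.75 and -0.69, and relative to it Fosl2 was higher by 1.33 under each and Mafg by 1.28 under each. Of the other genes named here, Atf5, Bach1, Rps6ka4, Srxn1, Abcc1 and Spi1 also lost their calls under both.

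**Figure D2:**
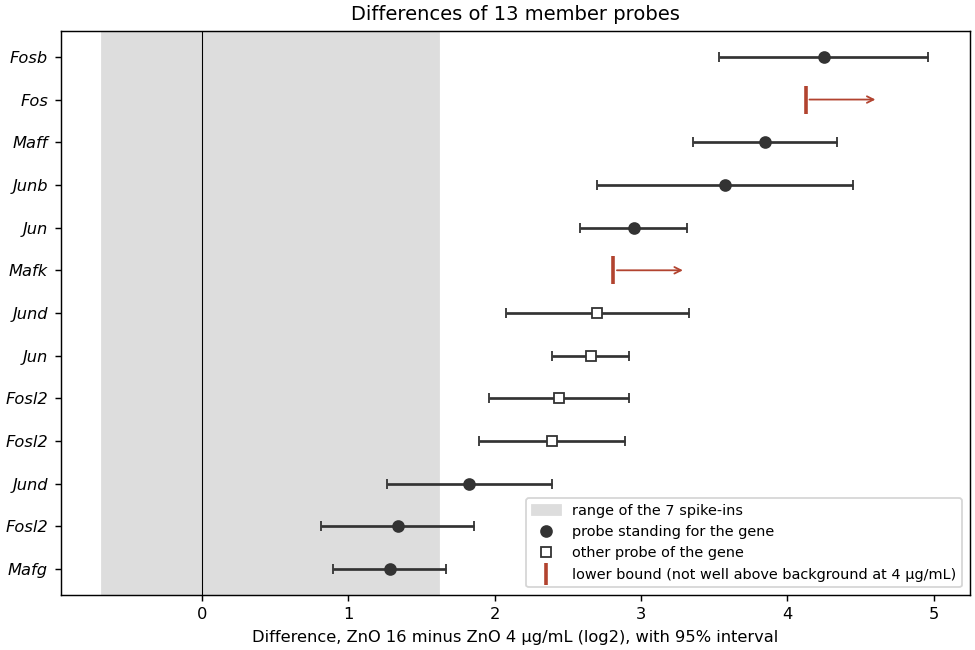
Difference between doses (ZnO 16 minus ZnO 4 µg/mL, log2) for the 13 tested member probes with 95% intervals, filled points for the probe that stands for a gene, open squares for its other probes, red ticks with arrows for the lower bounds of Fos and Mafk and a grey band for the range of 7 spike-ins. Points run from Mafg at 1.28 to Fosb at 4.25, the bounds stand at 4.13 for Fos and 2.81 for Mafk, and the filled points of Fosl2 and Mafg lie inside the band of -0.68 to 1.62.

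Differences taken within an array do not depend on how arrays were scaled, so paralogues were set against each other that way. The probe that stands for each gene was used. Spike-ins, though added in fixed amounts, also changed unequally on these arrays, by -0.68 to 1.62. The part of this in the pairs below was not tested. Jun rose more than Jund by 1.12 on the log2 scale and Junb more than Jund by 1.75. The second Jund probe rose by 2.70, against 2.95 and 2.66 for the 2 Jun probes and 3.57 for Junb. The order of Jun and Jund therefore depends on the probes compared. Among the small Mafs, Maff rose more than Mafg by 2.56. Fos and Mafk did not clear background at 4 µg/mL and stand there at their bounds. With these probes and the processed signals, Fos rose more than Fosl2 by at least 2.79 and Mafk more than Mafg by at least 1.53. The other 2 Fosl2 probes rose by 2.39 and 2.44, more than the 1.34 of the probe used here. The value of 2.79 therefore holds for that probe alone. In all 5 pairs the 4 arrays at 16 µg/mL were above the 4 at 4 µg/mL, and each exact two-sided permutation p was 0.0286, the smallest that 70 assignments allow (adjusted p = 0.0286 over the 5). The members subtracted, Fosl2, Jund and Mafg, had the smallest differences among the 9 tested (1.34, 1.83 and 1.28). How often other pairs of genes separate in this way was not computed. The level of a within-array difference has no meaning across probes, so only its change between doses was compared, with the limit given above for the spike-ins. With the mean of each gene's probes the Jun minus Jund contrast was 0.54 (adjusted p = 0.171, exact permutation). Starting from the median signals, with normexp and quantile normalization, the Junb minus Jund contrast was 0.44 (adjusted p = 0.107) and the Mafk minus Mafg contrast 0.073 (adjusted p = 0.686), again by exact permutation. The Fos minus Fosl2 contrast was then 1.64 and kept its call (adjusted p = 0.0476, exact permutation). Both this contrast and that of Mafk minus Mafg were then below the bounds above. That processing changes signal, background correction, offset and normalization together, and which of them moved the values was not tested.

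**Figure D3:**
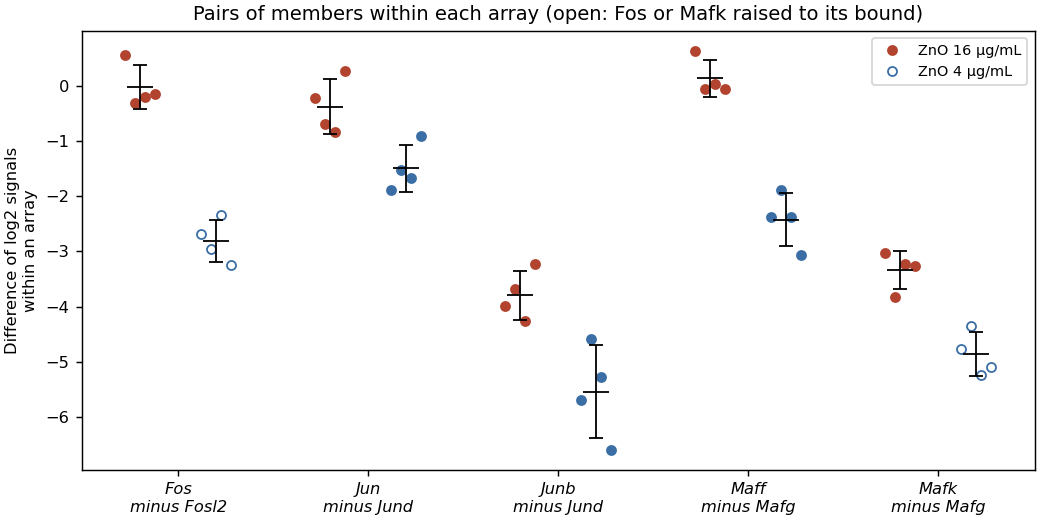
Difference of log2 signals between paired members within each array, 1 point per array, red for ZnO 16 µg/mL and blue for ZnO 4 µg/mL, with the mean and 1 SD of 4 arrays and open circles where Fos or Mafk stands at its bound. In each of the 5 pairs all red points lie above all blue points. With the probe that stands for each gene, the means differ by 1.12 for Jun minus Jund and by at least 2.79 for Fos minus Fosl2.

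Genes of the surrounding network came from lists of dimer partners, upstream kinases, turnover factors and targets. Their counts stand beside 19.8% of all genes tested called higher and 21.9% called lower. Among other basic leucine zipper genes, of the ATF, CREB, BATF, JDP and C/EBP families, 13 of 18 were tested. Of these 7 rose, none fell and the median difference was 0.77. Atf3, a stress-induced repressor that dimerises with Jun, averaged 4.54 ± 0.09 at 16 µg/mL and -0.25 ± 0.26 at 4 µg/mL (SD, n = 4 each), a rise of 4.79 (limma adjusted p = 3.18e-08). Ddit3, the stress factor CHOP, rose by 4.82, Cebpg, a C/EBP partner of ATF4, by 4.05 and Atf5 by 1.37. Ddit3 and Cebpg varied at 4 µg/mL with SDs of 2.12 and 2.28, and without replicate 4 of that dose the differences were 3.78 for Ddit3 and 2.92 for Cebpg. Atf4 itself averaged 4.53 ± 0.16 at 16 µg/mL and 4.33 ± 0.36 at 4 µg/mL (SD, n = 4 each), a difference of 0.20 that did not pass.

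Of the partners of small Maf proteins and the large Mafs, 5 of 11 were tested, 2 rose, none fell and the median difference was 0.56. Bach1, the heme-regulated repressor that pairs with small Mafs, rose by 1.13 (limma adjusted p = 0.00086), and the Bach1 difference was 0.44, still called, from the median signals with normexp and quantile normalization. Nfe2l2, which encodes NRF2, rose by 0.56 (limma adjusted p = 0.00687), but was lower by 0.19 with unscaled arrays and by 0.13 with spike-in scaling, where neither value passed. Keap1, which holds NRF2 for degradation, differed by 0.071 and did not pass.

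Upstream of AP-1, 15 of 23 genes for SRF, ternary complex factors and MAP kinases were tested. Of these 1 rose, 1 fell and 13 did not pass, with a median of 0.040. Rps6ka4, which encodes the chromatin kinase MSK2, rose by 1.01 (limma adjusted p = 0.00142). Mapk3, which encodes ERK1, fell by 0.88 (limma adjusted p = 0.00768), though with outlier-flagged spots kept the difference was -0.36 and did not pass (adjusted p = 0.547). With normexp and quantile normalization the Mapk3 difference was -0.55 and passed. Srf, the factor that binds CArG boxes, differed by 0.22 and Mapk14, which encodes p38 alpha, by 0.18, and neither passed.

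Among factors that degrade or assist AP-1 proteins, 10 of 13 were tested, 1 rose, 3 fell and the median was 0.09. Crebbp, the acetyltransferase CBP that Jun and Fos recruit, fell by 1.59 (limma adjusted p = 0.000154). Fbxo44, a ubiquitin ligase subunit, fell by 1.26 and the corepressor gene Ncor1 by 1.05. Ncor1 did not pass without replicate 1 or replicate 3 at 4 µg/mL (adjusted p = 0.0563 and 0.0540), nor with arrays scaled to their medians, where the Ncor1 difference was -0.88 (adjusted p = 0.0834). With normexp and quantile normalization all 3 were still called, with a Crebbp difference of -0.66, a Fbxo44 difference of -0.80 and a Ncor1 difference of -0.37 (adjusted p = 0.0327).

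Of 23 textbook AP-1 targets only 8 were tested, and 3 rose, 1 fell and 4 did not pass, with a median of 0.21. Dusp1, a phosphatase that turns off MAP kinases, averaged 1.40 ± 0.35 at 16 µg/mL (SD, n = 4) while no array at 4 µg/mL cleared background, so it was at least 51.6-fold higher. With normexp and quantile normalization the Dusp1 difference was 3.61 on the log2 scale, below that bound, which is 5.69 on the same scale. Plaur, the urokinase receptor, rose by 1.84 (limma adjusted p = 3.99e-05). Ccl2, a monocyte chemokine, rose by 0.56 (limma adjusted p = 0.00197), but was lower by 0.19 with unscaled arrays and by 0.13 with spike-in scaling. Cd44, a hyaluronan receptor, fell by 0.39 (limma adjusted p = 0.0156), and did not pass with arrays scaled to their medians (adjusted p = 0.346) or without the filter on dim probes (adjusted p = 0.0568). Mmp9 differed by 0.54, Mmp12 by -0.13, Ccnd1 by -0.15 and Cxcl2 by -0.26, none past the threshold. A probe was matched for 22 of the 23, and Mmp13, Il6, Timp1 and Spp1 were among those not well above background on enough arrays to be tested.

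Of 22 genes regulated through small Maf and NRF2 dimers, 20 were tested, with a median of 0.18. Of these 5 rose (25%), 4 fell (20%) and 11 did not pass. These shares are close to the 19.8% higher and 21.9% lower among all genes tested. The largest rise was that of Osgin1, an oxidative stress growth inhibitor, by 4.06 (limma adjusted p = 3.57e-06), or by 2.90 with normexp and quantile normalization. Hmox1, the heme-degrading enzyme, averaged 7.33 ± 0.28 at 16 µg/mL and 5.21 ± 0.32 at 4 µg/mL (SD, n = 4 each) and rose by 2.12 (limma adjusted p = 1.99e-05). Srxn1, a sulfiredoxin, rose by 1.40 and the exporter gene Abcc1 by 0.80, while Fth1, the ferritin heavy chain, fell by 1.96. Nqo1 differed by 0.15, Gclc by 0.22 and Txnrd1 by 0.56, and none of these passed. Abcc1 did not pass with normexp and quantile normalization, at 0.32 (adjusted p = 0.157).

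**Figure D4:**
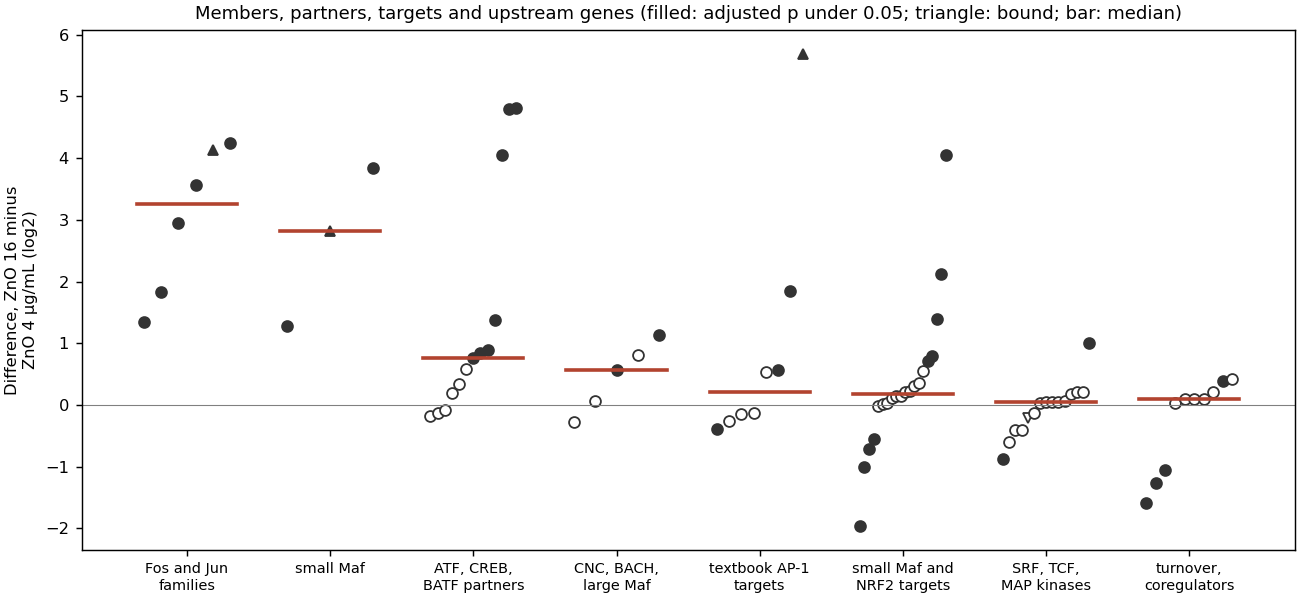
Difference between doses (ZnO 16 minus ZnO 4 µg/mL, log2) for every tested gene of 8 lists, 1 point per gene, filled where the limma adjusted p was under 0.05, with triangles for lower bounds (pointing down for Map3k1, which did not clear background at 16 µg/mL) and a red bar at the list's median. The 6 tested Fos and Jun genes have a median of 3.26 and the 3 small Mafs of 2.81. The ATF, CREB and BATF list, which also holds C/EBP genes, has a median of 0.77 and the upstream genes of 0.040.

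For 3 members the genes with the most alike pattern were sought as those whose mean-centred log2 signals had the smallest root-mean-square difference over the 8 arrays, among 7850 genes with an ordinary symbol. Nearest to Fos were Gpr15lg, which encodes a ligand of the receptor GPR15 (0.41 log2 units), Atf3 (0.58) and Dusp1 (0.75). Nearest to Jun were Sesn2, a stress-induced sestrin (0.17), Ier2, an early response gene (0.21), and Ppp1r15a, the GADD34 subunit of an eIF2 alpha phosphatase (0.25). Nearest to Maff were the zinc finger gene Zfand2a (0.27), Mafk (0.37) and Cimap2 (0.38). The measure favours genes with a like-sized difference between doses, and Fos, Gpr15lg, Dusp1, Mafk and Cimap2 did not clear background on any array at 4 µg/mL. Gpr15lg was spotted 10 times per array, and on all 4 of those arrays a spot of it did pass. Cimap2 was at least 2.17-fold higher at 16 µg/mL, a bound of 1.12 on the log2 scale. With normexp and quantile normalization the Cimap2 difference was 0.64, below that bound.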

How the data were processed

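Per the submitters' processing notes, Agilent Feature Extraction (version 11.0.1.1) made the deposited files, 1 for each array. Per the file headers, the processed signal is a linear intensity after background subtraction and spatial detrending of its array, and it was deposited without scaling between arrays. Raw median intensities and 0 or 1 flags were also used as deposited. From the deposited intensity, log2 values were computed and the 75th percentile of all non-control spots on the same array was subtracted. Spots flagged non-uniform or outlying were set to missing, and spots of a probe were averaged. A probe counted as well above background when more than 1 in 2 of its spots did. The brightest probe over the 8 arrays stood for its gene.

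Accessions were matched to RefSeq symbols (GRCr8), which named 21109 of 45598 probes (46.3%). The file headers name another build, so no array coordinates are given. Tests used limma 3.58.1 in R 4.3.3 (lmFit, eBayes with an intensity trend, two-sided, Benjamini-Hochberg, threshold 0.05), checked on simulated data. No spot was saturated. The number of arrays limits the precision. The members and gene lists were chosen with earlier results of these data known. Of each list up to 4 called genes in the majority direction and 1 in the other were named, and other values of listed genes were added after they were seen. Some listed genes are counted with their lists and are not reported here by name. Alternatives were other scalings, filters, background corrections, probe rules, single arrays left out and masks for low-signal areas (blocks of 16 by 16 spots with a median deviation under -0.5), of which the mask over bright spots and the use of single spots in lower bounds were added after seeing the data.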

Additional observations from a re-analysis of the deposited data

How the results depend on the processing

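Over 22 alternatives the 9 tested members gave 194 differences. All 194 were above 0, and 190 kept their side of the threshold. The 4 that did not were Fosl2 and Mafg with no scaling and with spike-in scaling, as given with the spike-ins. The count of all genes called higher was 2672, against 230 with no scaling and 256 with spike-in scaling. With these scalings the differences of Nfe2l2 (-0.19 and -0.13) and Ccl2 (-0.19 and -0.13) turned negative, and Atf5, Bach1, Rps6ka4, Srxn1, Abcc1 and Spi1 no longer passed. Where all 8 arrays had to be well above background, 5 members were tested and 5 were called higher. Normexp with quantile normalization took Fos to 2.49, Fosb to 2.63, Fosl2 to 0.85, Junb to 2.17 and Mafk to 1.37, all still called, and the Fos minus Fosl2 contrast to 1.64. It also took the Junb minus Jund contrast to 0.44 and the Mafk minus Mafg contrast to 0.073, and the mean of all probes took the Jun minus Jund contrast to 0.54. The cause was not tested. Leaving out 1 array at a time left 9 members called higher and 0 lower each time. With signals below background as measured, the contrasts ranged from 4.10 to 4.57 for Fos minus Fosl2, 0.91 to 1.32 for Jun minus Jund, 1.40 to 2.06 for Junb minus Jund, 2.35 to 2.74 for Maff minus Mafg and 2.38 to 2.83 for Mafk minus Mafg. The mask over all spots took in spots of Fosl1, Jun and Jund on replicate 1 at 16 µg/mL. The Jun and Jund differences stayed at 2.95 and 1.83 under it. The mask over bright spots took in those of Junb and Mafk on replicate 4 at 4 µg/mL. The 2 contrasts with Junb and Mafk then gave no value, since a spot was missing. With each gene averaged over its probes, Vwf differed by -0.027 and Itgam by -0.31, and neither passed. The doses share replicate numbers, and a fit with a replicate block called 9 members higher and 0 lower. Deviations of same-numbered arrays correlated at 0.25, 0.40, -0.22 and -0.029 across genes, so the numbers were not taken as pairs.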
